A study of Mus musculus with 15 samples.

Results

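The genes described here are 6 red cell genes measured in mouse skeletal muscle: the adult alpha-globin genes Hba-a1 and Hba-a2, the adult beta-globin genes Hbb-bs and Hbb-bt, Alas2 and Slc4a1. They were taken by name from the gene name column of the deposited tables, which were joined by gene identifier, and they are 6 of the 55536 genes listed. The 15 samples were muscle of male mice aged 2 months. There were 5 wild-type control samples, 5 labelled PdgfrB Knock Out and 5 labelled PdgfrB D489V, called knockout and D489V below. The study's design text describes the knockout and the constitutively active allele as specific to myogenin, a transcription factor of differentiating muscle cells. Poly(A) RNA was sequenced with a strand-preserving kit. The labels do not give the muscle, strain, litter, batch or whether blood was flushed from the tissue, nor whether the controls carry the myogenin driver.

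Haemoglobin, the oxygen carrier of red cells, is a tetramer of alpha and beta chains, each holding a haem group. Maturing red cells make very large amounts of globin RNA together with the enzymes of haem synthesis, and then lose their nucleus. The youngest circulating red cells, the reticulocytes, still carry globin RNA, so whole tissue that holds blood usually gives globin reads. In bulk muscle RNA, more red cells and more RNA per red cell cannot be told apart.

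The globin copies within a cluster are nearly identical, which bears on every value given for a single copy. The coding sequences of Hba-a1 and Hba-a2 have 429 bases each and differ at 1 position, C381T (99.767% identity), counted from 1 at the A of the start codon, with the Hba-a1 base first. Hbb-bs and Hbb-bt have 444 coding bases each and also differ at 1 position, C417T (99.775% identity), with the Hbb-bs base first. The 60 coding bases around each difference, all in exon 3 of 3, are shown to let the copies be compared, with the differing base in capitals. On GRCm38 they lie at chr11:32284313-32284372 (plus strand), chr11:32297130-32297189 (plus strand), chr7:103826665-103826724 (minus strand) and chr7:103812656-103812715 (minus strand), in the order printed.
Hba-a1: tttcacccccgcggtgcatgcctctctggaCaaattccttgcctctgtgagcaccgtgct
Hba-a2: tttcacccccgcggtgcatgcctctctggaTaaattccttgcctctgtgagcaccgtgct
Hbb-bs: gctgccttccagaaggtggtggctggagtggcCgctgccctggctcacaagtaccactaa
Hbb-bt: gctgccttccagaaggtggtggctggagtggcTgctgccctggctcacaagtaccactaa

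Of the 600 windows of 100 bases in the Hba-a1 transcript, 339 (56.5%) also occur in that of Hba-a2, where they make up 74.5% of 455 windows. Of the 529 windows in the Hbb-bs transcript, 331 (62.6%) also occur in that of Hbb-bt, where they make up 54.8% of 604. Alas2 (1938 windows) and Slc4a1 (4446 windows) share none with another gene. How reads that match both copies were counted, and the read length, are not given in the sources used here. The level of each single globin copy is therefore uncertain, while sums over both alpha or both beta copies do not depend on how reads were divided between them, although they would be lower if such reads were left out.

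The promoters of the globin genes are shown to let those of the copies and of the partner chains be compared. The counts of these genes moved together across samples, and any part of the promoters in this was not tested. Promoter sequences from RefSeq (GRCm38.p6, the 250 bases before the start site) were matched for 5 of the 6 genes. The Hba-a1 and Hba-a2 promoters are the same over 247 bases at an offset of 3 bases, so that of Hba-a2 (chr11:32296242-32296491, plus strand) is printed for both. The others are Hbb-bs (chr7:103827929-103828178, minus strand), Hbb-bt (chr7:103813924-103814173, minus strand) and Alas2 (chrX:150547167-150547416, plus strand). Capitals mark 4 short motifs on either strand. They are CACCC, known for erythroid Krüppel-like factors (GGGTG on the other strand), and GATAA, known for GATA factors (TTATC on the other strand). The others are CCAAT, a common promoter box (ATTGG on the other strand), and TATAA, of the box that places the start site (TTATA on the other strand).
Hba-a2: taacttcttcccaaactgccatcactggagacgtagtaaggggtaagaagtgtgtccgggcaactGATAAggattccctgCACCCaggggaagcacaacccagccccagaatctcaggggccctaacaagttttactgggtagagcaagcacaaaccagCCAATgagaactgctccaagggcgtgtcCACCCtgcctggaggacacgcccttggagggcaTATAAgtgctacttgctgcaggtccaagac
Hbb-bs: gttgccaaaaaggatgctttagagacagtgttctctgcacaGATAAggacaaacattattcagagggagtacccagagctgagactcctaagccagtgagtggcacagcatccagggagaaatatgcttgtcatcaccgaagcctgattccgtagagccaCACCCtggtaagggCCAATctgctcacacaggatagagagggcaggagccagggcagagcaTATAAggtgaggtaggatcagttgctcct
Hbb-bt: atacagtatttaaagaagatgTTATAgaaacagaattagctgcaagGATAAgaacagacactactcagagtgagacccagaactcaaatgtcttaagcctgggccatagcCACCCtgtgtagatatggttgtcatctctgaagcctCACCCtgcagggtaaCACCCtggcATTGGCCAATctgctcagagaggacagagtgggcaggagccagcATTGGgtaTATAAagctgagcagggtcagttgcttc
Alas2: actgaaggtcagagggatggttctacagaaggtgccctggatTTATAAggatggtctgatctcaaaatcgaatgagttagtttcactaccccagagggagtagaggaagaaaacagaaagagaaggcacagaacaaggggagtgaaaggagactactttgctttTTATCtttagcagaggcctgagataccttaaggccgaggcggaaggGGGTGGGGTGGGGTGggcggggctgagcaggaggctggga

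All 4 globin promoters hold all 4 motifs, as do 318 (0.968%) of the 32851 promoters of the same length. Singly, CACCC occurs in 52.014%, GATAA in 22.581%, CCAAT in 33.85% and TATAA in 22.785% of them. The TATAA nearest the start site begins 30 bases before it in Hba-a2, 29 in Hbb-bs and 28 in Hbb-bt. Alas2 holds 3 CACCC and 1 GATAA, all on the other strand, and TATAA on both strands in 1 overlapping stretch, with no CCAAT in this window. In Hbb-bt an ATTGG directly abuts a CCAAT. A match of letters is a description and not a binding site.

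The sum of normalized counts per sample was 29815559 to 36489777. Pdgfrb, named because it is the targeted gene, had 1673 to 1848 normalized counts in controls, 958 to 1628 with the knockout and 820 to 1062 with D489V. It was thus read in every knockout sample, and its lowest levels were in D489V. Knockout replicate 3 did not match its male label: it had 3165 normalized counts of Xist, a gene read from the inactive X of female cells, against at most 101 elsewhere. Its summed level of 4 Y-linked genes was 822, against 3171 to 7237 elsewhere. Xist and the Y-linked genes were chosen after their values were seen. Since knockout replicate 3 also had the lowest value of every one of the 6 red cell genes, results on these genes and on the gene lists in knockout are given with and without it.

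All 6 red cell genes had their highest mean in D489V and their lowest in knockout. The 4 globin genes together had 6716 ± 1256 normalized counts (SD, n = 5) in controls, 5611 ± 1886 (SD, n = 5) in knockout and 16210 ± 4739 (SD, n = 5) in D489V. They made up 17.1 to 26.5 of each 100000 normalized counts in controls, 9.68 to 23.8 in knockout and 37.6 to 67.0 in D489V. The sum differed 6.89-fold between the lowest sample, knockout replicate 3, and the highest, D489V replicate 4. Every D489V sample lay above every control and every knockout sample, and control and knockout samples overlapped.

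**Figure D1:**
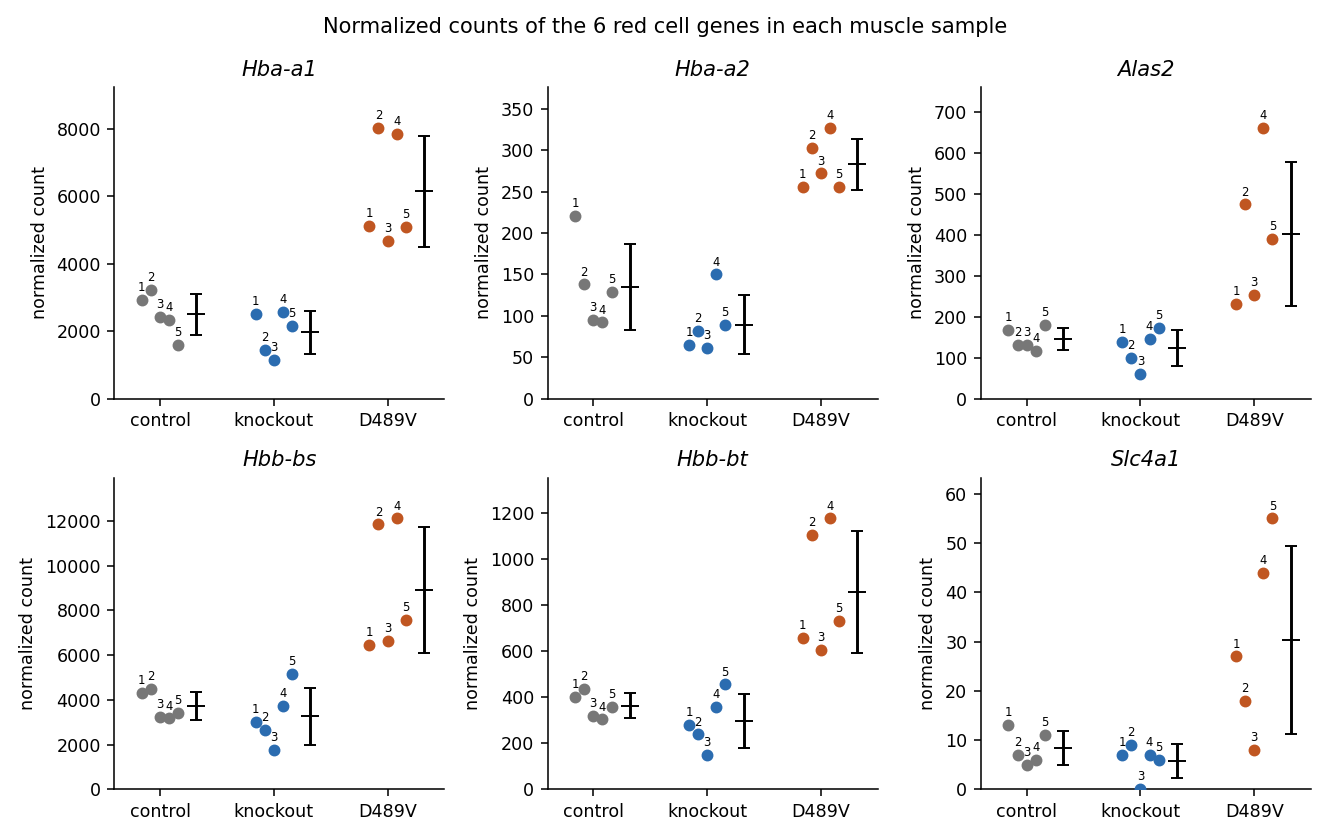
Normalized counts (linear axes from 0) of Hba-a1, Hba-a2, Alas2, Hbb-bs, Hbb-bt and Slc4a1 in the 15 muscle samples, with 1 point per sample numbered by replicate and the group mean ± SD (n = 5) beside the points. For 5 of the genes all D489V points lie above all others, while for Slc4a1 D489V replicate 3 lies among the controls.

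Hba-a1 (ENSMUSG00000069919, chromosome 11, 32283511 to 32284465, plus strand, protein-coding) encodes the alpha chain. Its normalized counts were 2918, 3217, 2416, 2325 and 1597 in controls 1 to 5. They were 2518, 1439, 1155, 2559 and 2153 in knockout samples 1 to 5. They were 5113, 8021, 4671, 7849 and 5088 in D489V samples 1 to 5. The lowest D489V sample stood above the highest control, and D489V samples 2 and 4 stood apart from the other 3. Knockout samples lay within or below the control range.

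Hba-a2 (ENSMUSG00000069917, chromosome 11, 32296489 to 32297298, plus strand, protein-coding) is the second adult alpha-globin copy. It had 221, 138, 95, 92 and 129 normalized counts in the controls. The knockout samples held 65, 82, 61, 150 and 89. The D489V samples held 256, 303, 272, 327 and 256. The D489V group again lay above both others without overlap, and here D489V was the group with the narrowest spread relative to its mean (283 ± 31.3, SD, n = 5).

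Hbb-bs (ENSMUSG00000052305, chromosome 7, 103826534 to 103828096, minus strand, protein-coding) encodes the beta chain. Controls had 4301, 4489, 3252, 3166 and 3405 normalized counts. Knockout samples had 3030, 2637, 1749, 3725 and 5161. D489V samples had 6446, 11839, 6650, 12105 and 7554. Knockout replicate 5 exceeded every control, so knockout and control overlapped in both directions, whereas D489V did not overlap either group.

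Hbb-bt (ENSMUSG00000073940, chromosome 7, 103812524 to 103813996, minus strand, protein-coding) is the second adult beta-globin copy. Its normalized counts were 401, 437, 318, 304 and 359 in controls. Knockout samples held 280, 239, 149, 357 and 456. D489V samples held 657, 1107, 608, 1178 and 734. The samples stood in nearly the same order as for Hbb-bs, with D489V replicates 2 and 4 highest and knockout replicate 3 lowest.

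Alas2 (ENSMUSG00000025270, chromosome X, 150547375 to 150570638, plus strand, protein-coding) encodes the erythroid enzyme of the first, rate-limiting step of haem synthesis. Its normalized counts were 168, 132, 131, 116 and 181 in controls. In knockout they were 138, 99, 61, 145 and 173. In D489V they were 232, 474, 253, 661 and 389. All D489V samples lay above all others. The spread within D489V was wide (402 ± 176, SD, n = 5), and over all 15 samples Alas2 varied 10.8-fold, against 5.36-fold to 7.91-fold for the globin genes.

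Slc4a1 (ENSMUSG00000006574, chromosome 11, 102348824 to 102366203, minus strand, protein-coding) encodes band 3, the anion exchanger of the red cell membrane. It had 13, 7, 5, 6 and 11 normalized counts in controls. Knockout samples had 7, 9, 0, 7 and 6. D489V samples had 27, 18, 8, 44 and 55. Of the D489V samples 4 lay above every control, and D489V replicate 3 lay within the control range. Since single reads weigh heavily at this level, genes entered the tests if 5 or more of the 10 samples compared reached 10 normalized counts, and Slc4a1 did so in D489V against control only, through 4 D489V and 2 control samples.

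Per kilobase of exon, the mean level in controls was 4847 ± 812 normalized counts (SD, n = 5) for Hbb-bs and 3072 ± 765 for Hba-a1. It was 518 ± 79.3 for Hbb-bt and 202 ± 78.2 for Hba-a2. Alas2 stood at 60.6 ± 11.4 and Slc4a1 at 1.72 ± 0.702. This order was the same by group means in knockout and in D489V, and each neighbouring pair of means differed by more than the SD of either gene in all 3 groups. For scale, Mb, the gene of myoglobin and the oxygen store of muscle fibres, had a level of 27270 ± 9886 per kilobase in controls.

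Differences between groups were fitted with limma over all genes that met the requirement, on log2(value + 1), and a gene was called if its Benjamini-Hochberg adjusted p was under 0.05. The question was how muscle RNA differs when Pdgfrb, a platelet-derived growth factor receptor gene, is altered in myogenin-expressing cells. The comparisons of knockout and of D489V with control share the 5 controls, and each mutant group also enters the third comparison.

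In knockout against D489V, all 5 tested red cell genes were lower in knockout by limma at an adjusted p under 0.05, as were 10.3% of the 15299 genes tested. For each of them every knockout sample lay below every D489V sample, as for 6.7% of all genes tested. Hba-a1 differed by -1.67 on the log2 scale (limma SE 0.238, 95% interval -2.19 to -1.16, adjusted p 0.00247). For Hba-a2 the difference was -1.72 (limma SE 0.215, adjusted p 0.00155), and the D489V mean was 3.16 times the knockout mean. The beta-globin genes differed by -1.49 for Hbb-bs (limma SE 0.272, adjusted p 0.00588) and -1.57 for Hbb-bt (limma SE 0.28, adjusted p 0.00516). Alas2 differed by -1.68 (limma SE 0.323, adjusted p 0.00715). The median over the 5 genes was -1.67, against 0.0004 over all genes tested. Slc4a1 was not tested here. With no requirement on low values its difference was -2.28 with an adjusted p of 0.0509 in limma.

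These calls did not rest on knockout replicate 3, without which the 5 differences lay between -1.60 and -1.28 with limma adjusted p-values of 0.00259 to 0.0119. They passed the threshold in all 110 values computed under other settings.

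In D489V against control, 0 of the 6 red cell genes passed the limma threshold, which 0.0587% of the 15339 genes tested passed. All 6 had an unadjusted p under 0.05, as did 9.43% of all genes tested, and 5 of the 6 had every D489V sample above every control, as did 1.1%. The mean in D489V was 2.46 times the control mean for Hba-a1, 2.09 times for Hba-a2, 2.40 times for Hbb-bs and 2.35 times for Hbb-bt. It was 2.76 times the control mean for Alas2 and 3.62 times for Slc4a1. On the log2 scale the differences were 1.30 for Hba-a1 (limma SE 0.209, 95% interval 0.84 to 1.76), 1.22 for Hbb-bs (SE 0.198) and 1.19 for Hbb-bt (SE 0.194), each with an adjusted p of 0.0506. For Hba-a2 the difference was 1.13 (limma SE 0.214, adjusted p 0.083), for Alas2 1.37 (SE 0.266, adjusted p 0.0841) and for Slc4a1 1.55 (SE 0.484, adjusted p 0.321). The median over the 6 genes was 1.26, against 0.0019 over all genes tested.

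The adjusted p of Hba-a1, Hbb-bs and Hbb-bt lay close to the threshold, and those of Hba-a2, Alas2 and Slc4a1 lay further above it. Over all the red cell genes, 22 of 130 values under other settings passed it, with no change of sign. None of those that passed was for Slc4a1. Over those settings the limma adjusted p of Hba-a1 ran from 0.0233 to 0.24 and that of Slc4a1 from 0.106 to 0.616.

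In knockout against control, 0 of the 5 tested genes passed the limma threshold, which 0.00656% of the 15234 genes tested passed. None of the 5 had an unadjusted p under 0.05, against 15.1% of all genes tested. None had groups without overlap, whereas 1.25% of all genes tested had every knockout sample below every control. The log2 differences were -0.37 for Hba-a1 (limma 95% interval -0.91 to 0.16, adjusted p 0.452) and -0.59 for Hba-a2 (interval -1.22 to 0.04, adjusted p 0.346). They were -0.27 for Hbb-bs (limma interval -0.79 to 0.26, adjusted p 0.579), -0.38 for Hbb-bt (adjusted p 0.455) and -0.31 for Alas2 (adjusted p 0.558). These intervals include 0, and they also include falls by 0.79 or more on the log2 scale. Without knockout replicate 3 the differences were -0.20 for Hba-a1, -0.47 for Hba-a2, -0.06 for Hbb-bs, -0.16 for Hbb-bt and -0.08 for Alas2, and limma called none.

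**Figure D2:**
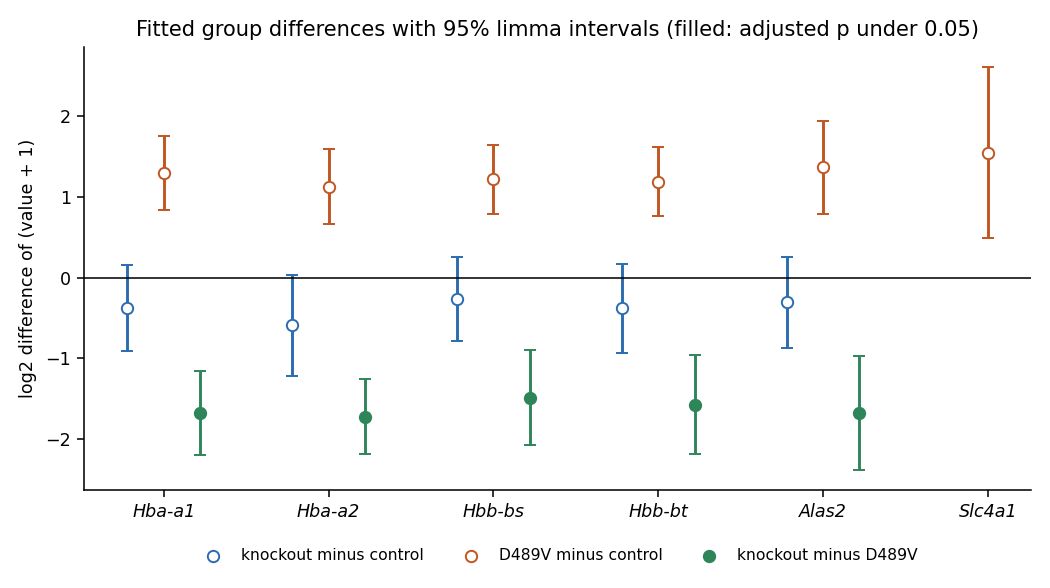
Fitted differences in log2(value + 1) for each red cell gene with 95% limma intervals, for knockout minus control, D489V minus control and knockout minus D489V, where filled points have an adjusted p under 0.05. The 5 filled points are those of knockout minus D489V, between -1.72 and -1.49, while the points of D489V minus control lie between 1.13 and 1.55 and are open.

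Ratios between the genes within a sample are given as descriptions, on normalized counts that were not divided by length. Hbb-bt made up 9.80 ± 0.453% of the Hbb-bs count in controls, 9.05 ± 0.403% in knockout and 9.63 ± 0.402% in D489V (SD, n = 5 each). Over all 15 samples this ratio stayed between 8.52% and 10.5%, with an SD of 5.38% of its mean, although Hbb-bs itself varied 6.92-fold and Hbb-bt 7.91-fold. The counts of the beta copies thus kept nearly 1 proportion from the lowest to the highest sample. How reads that match both copies were divided is not known, and its part in this ratio was not tested.

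The ratio of the alpha copies varied more. Hba-a2 made up 7.57, 4.29, 3.93, 3.96 and 8.08% of the Hba-a1 count in controls 1 to 5. The shares were 2.58, 5.70, 5.28, 5.86 and 4.13% in knockout, and 5.01, 3.78, 5.82, 4.17 and 5.03% in D489V. The SD over all samples was 29.0% of the mean, and the highest and lowest values both came from groups other than D489V.

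Alpha relative to beta globin did not separate the groups. The summed alpha count was 66.8, 68.1, 70.3, 69.7 and 45.9% of the summed beta count in controls. It was 78.0, 52.9, 64.1, 66.4 and 39.9% in knockout and 75.6, 64.3, 68.1, 61.6 and 64.5% in D489V. Control 5 and knockout 5 had the lowest values.

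Alas2 relative to the globin sum was 1.59 to 3.30% in controls, 1.96 to 2.34% in knockout and 1.86 to 3.08% in D489V, so the groups overlapped. The 3 highest values were those of control 5 and D489V replicates 4 and 5. No group stood apart in this ratio.

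**Figure D3:**
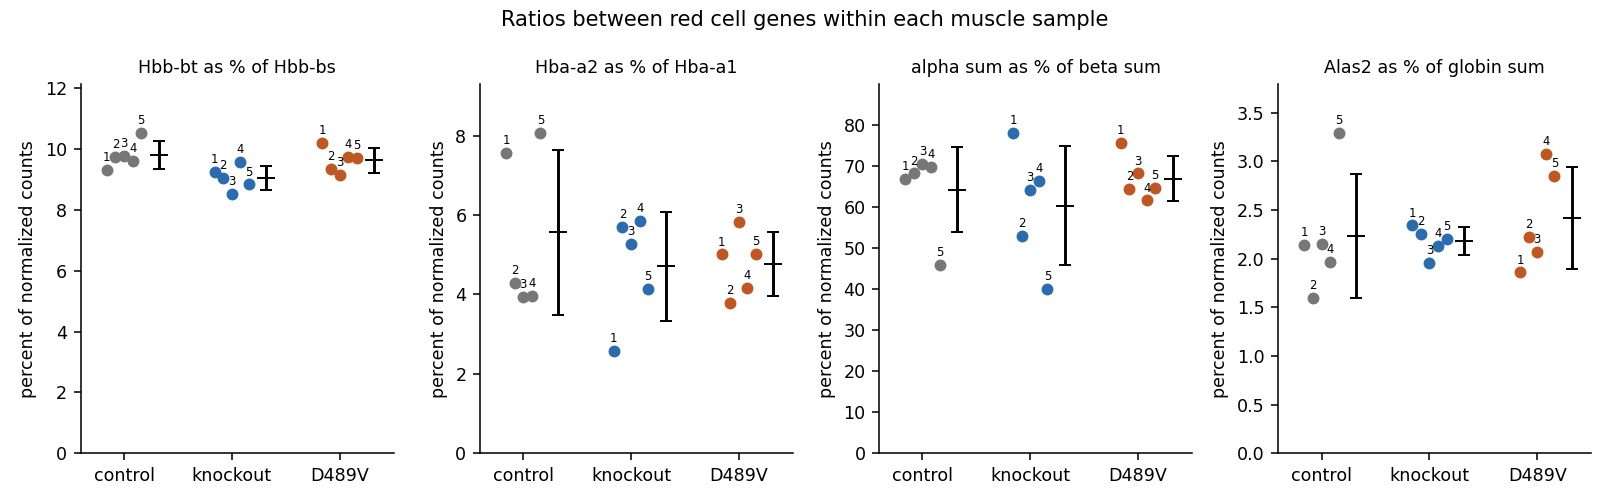
Ratios of normalized counts in percent (linear axes from 0) within each of the 15 samples, with points numbered by replicate and the group mean ± SD (n = 5) beside them. The ratio of Hbb-bt to Hbb-bs stays between 8.52% and 10.5% in all samples, and in none of the 4 ratios does a group stand apart.

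Other genes of the red cell programme differed among themselves. The embryonic and minor globin genes were at or near 0 in every sample. Hbb-y, Hbb-bh1 and Hbb-bh2 were listed at 0 in all 15 samples, and Hba-x reached 1 normalized count in 1 D489V sample. Hbq1a and Hbq1b, theta-like genes of the alpha cluster, reached at most 4. The sum of these 6 genes was 0 or 1 in controls, 0 to 2 in knockout and 1 to 6 in D489V.

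The 8 enzymes of haem synthesis other than Alas2, which most cells make, had 1 gene called higher and 1 lower in knockout against D489V, where 20.8% of all genes tested were called. Cpox, coproporphyrinogen oxidase, was higher in knockout, with a log2 difference of 0.60 (limma adjusted p 0.0245). Ppox, which acts in the next step, was lower by -0.56 (limma adjusted p 0.0116). The median over the 8 enzymes was 0.20, of opposite sign to the -1.67 of Alas2 and the tested globin genes. In D489V against control their median was -0.07, with 0 of 8 called by limma and 1 at an unadjusted p under 0.05.

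Of 14 other genes of the red cell membrane and its skeleton, 7 were tested. Dmtn, a membrane skeleton protein also called dematin, was lower in knockout than in D489V by -0.85 (limma adjusted p 0.0323), and Xk, a membrane transporter-like protein, was higher by 0.63 (limma adjusted p 0.0485). These are 2 of 7 called, against 20.8% of all genes tested, and limma called neither without knockout replicate 3. The median of the list was 0.23 here and -0.02 in D489V against control.

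Of a list of 9 genes, made up of erythroid transcription factors and the erythropoietin receptor, 4 could be tested. Tal1, a transcription factor of blood and endothelial cells, was lower in knockout than in D489V by -0.88 (limma adjusted p 0.0105), and Epor, the erythropoietin receptor, by -1.43 (limma adjusted p 0.0376). Of the 4 tested, 2 were thus called lower, against 10.3% of all genes tested, and the median of the 4 was -0.60. In D489V against control, Tal1 differed by 0.31 and Epor by 0.34, limma called neither, and the median of the 4 was 0.23. These medians have the same signs as those of the 6 red cell genes, but rest on 4 genes, of which 1 had the opposite sign in each comparison. Gata1 and Klf1, main erythroid factors chosen after their values were seen, reached at most 2 and 9 normalized counts in any sample.

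A list of 23 genes known for high RNA in late red cell precursors, several of which other cells also make, had 22 genes in the tables and 19 tested in knockout against D489V. There 2 were called lower in knockout and 3 higher, 5 of 19 against 20.8% of all genes tested. Ube2l6, a conjugating enzyme of the ubiquitin-like ISG15, was lower in knockout by -0.69 (limma adjusted p 0.0161). Car2, carbonic anhydrase 2, was higher by 0.69 (limma adjusted p 0.0136), as were Tmcc2 by 0.49 (limma adjusted p 0.0171) and Ube2o by 0.41 (limma adjusted p 0.0118). The median of the list was 0.07 in this comparison and -0.01 in D489V against control.

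Of 9 genes of haem breakdown and iron handling, Ftl1, the light chain of the iron store ferritin, was called. It was lower in knockout than in D489V by -0.59 (limma adjusted p 0.00778), and in D489V against control it differed by 0.25 (limma adjusted p 0.548). Limma called 0 genes of these 5 lists of haem, membrane, regulator, late erythroid and iron genes in either comparison with control. At an unadjusted p under 0.05 there were 1, 0, 0, 1 and 0 of them, in that order, in D489V against control (9.43% of all genes tested) and 2, 2, 1, 3 and 3 in knockout against control (15.1%). Without knockout replicate 3 limma still called Cpox, Ppox, Tal1, Epor and Ftl1 in knockout against D489V and again called 0 genes of these lists in knockout against control. Their medians in knockout against D489V were then 0.23 for haem synthesis, 0.22 for the membrane, -0.61 for the regulators, 0.08 for the late erythroid list, where 6 of 19 were called, and -0.05 for iron.

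**Figure D4:**
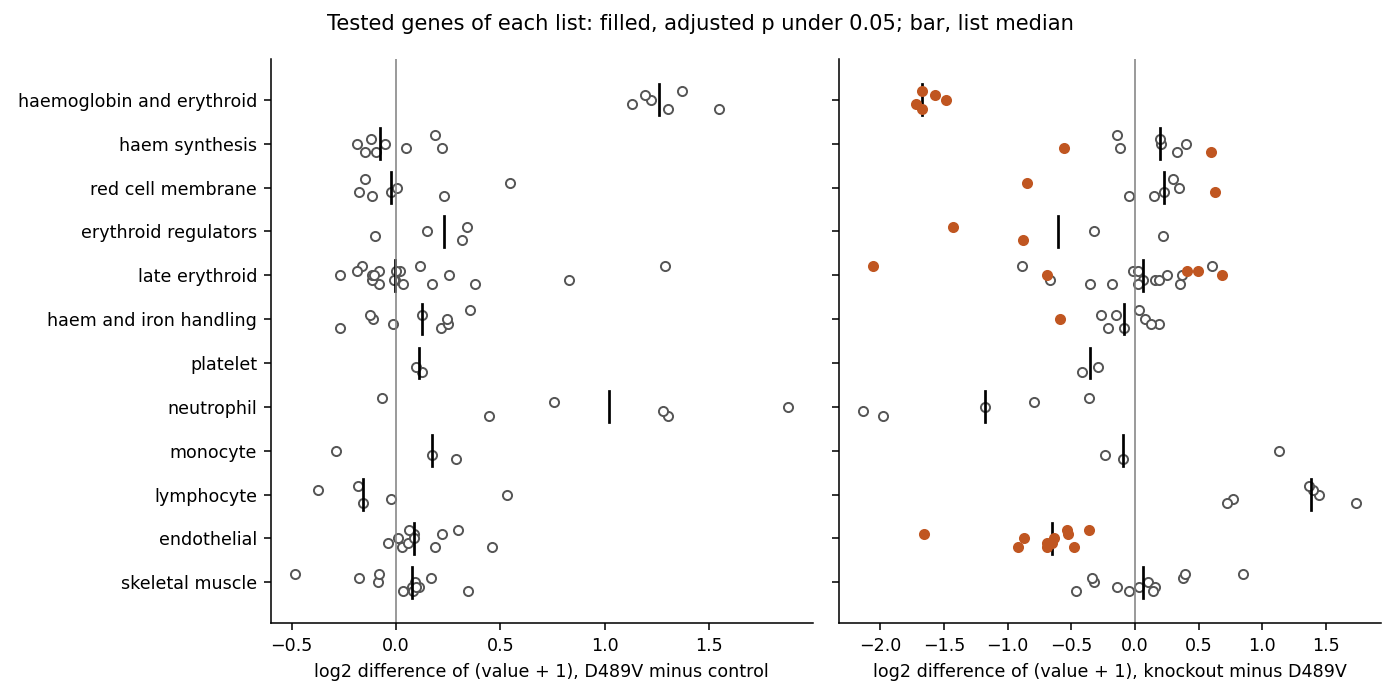
Log2 differences of (value + 1) of each tested gene, by list, for D489V minus control and knockout minus D489V, where filled points have a limma adjusted p under 0.05 and bars mark list medians. The 6 red cell genes have a median of 1.26 in the first panel and their 5 tested members one of -1.67 in the second, while the erythroid regulators have medians of 0.23 and -0.60 and the haem synthesis and late erythroid medians lie between -0.07 and 0.20 in both.

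Markers of other blood and vessel cells are given beside these results. The summed level of 12 neutrophil and marrow granulocyte genes was 96 to 305 normalized counts in controls and 87 to 187 in knockout. It was 131, 253, 122, 1122 and 1237 in D489V samples 1 to 5. S100a9, an abundant neutrophil calcium-binding protein, held 226 and 217 of this in D489V replicates 4 and 5, and at most 65 elsewhere. Ngp and Mpo, granule genes of marrow precursors chosen after their values were seen, held 210 and 294, and 64 and 88, in those 2 samples. Elsewhere Ngp was at most 40 and Mpo at most 19. Csf3r and Cxcr2 of the same list, also chosen after their values were seen, did not stand apart in those 2 samples. Csf3r held 53 and 33 there, against up to 52 in controls, and Cxcr2 held 19 and 5, against up to 29 in controls. Each other gene of the list had its highest values in those 2 samples. Of the 6 neutrophil genes tested in D489V against control, with a median of 1.02, limma called 0 and gave 1 an unadjusted p under 0.05. In knockout against D489V it called 0 of 5, with 2 at an unadjusted p under 0.05.

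The same 2 D489V samples had the highest Slc4a1 levels and were among the 3 highest for Alas2. Without them, the D489V mean of Alas2 was 320 and that of Slc4a1 17.7 normalized counts. The remaining 3 D489V samples still lay above every control for Hba-a1, Hba-a2, Hbb-bs, Hbb-bt and Alas2. Their log2 differences from control were 1.25, 1.10, 1.11, 1.08 and 1.07, with limma adjusted p-values of 0.24 to 0.298, and the 5 genes were still called lower in knockout than in D489V, by -1.70 to -1.38 (limma adjusted p 0.00233 to 0.0155).

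The lymphocyte list, which includes the B cell gene Cd79a, summed to 5085 normalized counts in control 5 and to 1474, 4362 and 1131 in knockout samples 3 to 5, against 38 to 265 elsewhere. In knockout against D489V limma called 0 of the 6 tested, and 0 had an unadjusted p under 0.05. Without knockout samples 3 to 5, only knockout samples 1 and 2 remained to compare with the 5 D489V samples. The 5 red cell genes were then still called lower in knockout than in D489V, by -1.93 to -1.60 (limma adjusted p 0.000803 to 0.0442). Platelet genes, led by Itga2b and Pf4, summed to 164 to 214 in controls, 86 to 245 in knockout and 203 to 300 in D489V, and of the 2 tested in knockout against D489V limma called 0, also by unadjusted p. The other 7 platelet genes were too low to test and are given as chosen after their values were seen. Ppbp had 1 to 7 normalized counts in controls, 0 to 4 in knockout and 6 to 13 in D489V, and Treml1 had 0 to 4, 0 to 1 and 2 to 7. For both every knockout sample lay below every D489V sample. Gp9 had means of 2.4, 0.6 and 4.8 and Tubb1 of 2.8, 1.6 and 4.6, with overlap. The means of Clec1b were 3.0, 2.4 and 3.6 and those of Gp1ba 0.8, 0.2 and 1.4, also with overlap, and Gp1bb was listed at 0 throughout. The part of platelets in the red cell gene levels was not tested. The monocyte list, led by Itgal and Ccr2, summed to 73 to 794, 84 to 537 and 90 to 219, with 0 of 3 genes called by limma in knockout against D489V, also by unadjusted p.

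The endothelial list moved with the red cell genes in knockout against D489V. All 11 of its genes were lower in knockout (limma adjusted p under 0.05), as were 10.3% of all genes tested, with a median of -0.65. Without knockout replicate 3, which had the lowest endothelial sum, limma still called all 11, with a median of -0.55. Cldn5, a tight junction protein of vessels, differed by -1.66 (limma adjusted p 0.00243) and Egfl7 by -0.92 (limma adjusted p 0.00693). Kdr, a receptor for vascular endothelial growth factor, differed by -0.87 (limma adjusted p 0.00778), Vwf by -0.69 (limma adjusted p 0.0141) and Emcn by -0.69 (limma adjusted p 0.0196). The summed level was 12476 to 18589 in knockout and 22408 to 27007 in D489V, without overlap. In controls it was 19372 to 29029, which overlaps D489V, and the median of D489V against control was 0.09, with 0 genes called by limma and 1 at an unadjusted p under 0.05 (9.43% of all genes). In knockout against control all 11 differences were below 0, with a median of -0.55. Limma called 0 of them, and 9 had an unadjusted p under 0.05, against 15.1% of all genes tested. Both counts were the same without knockout replicate 3, with a median of -0.47. Of the blood cell lists, 1 neutrophil gene, Lcn2, was called lower in knockout than in D489V without that sample, and limma called 0 genes of the platelet, monocyte and lymphocyte lists.

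Set against Pecam1, an endothelial adhesion gene chosen after its values were seen, the globin sum was 162 to 227% of the Pecam1 count in controls and 145 to 327% in knockout. It was 352 to 614% in D489V, above every sample of both other groups. The part of vessel content, of white cells and of blood left in the muscle in these levels was not tested. Set against the myoglobin gene Mb, the globin sum was 8.77 to 31.1% in controls, 6.20 to 13.6% in knockout and 26.8 to 64.0% in D489V, where D489V and controls overlapped, and Mb itself varied between 25228 and 67947. Of 12 muscle fibre genes, led by Myh4 and Atp2a1, limma called 0 in any comparison, with 1 at an unadjusted p under 0.05 in knockout against D489V and 0 in the others.

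**Figure D5:**
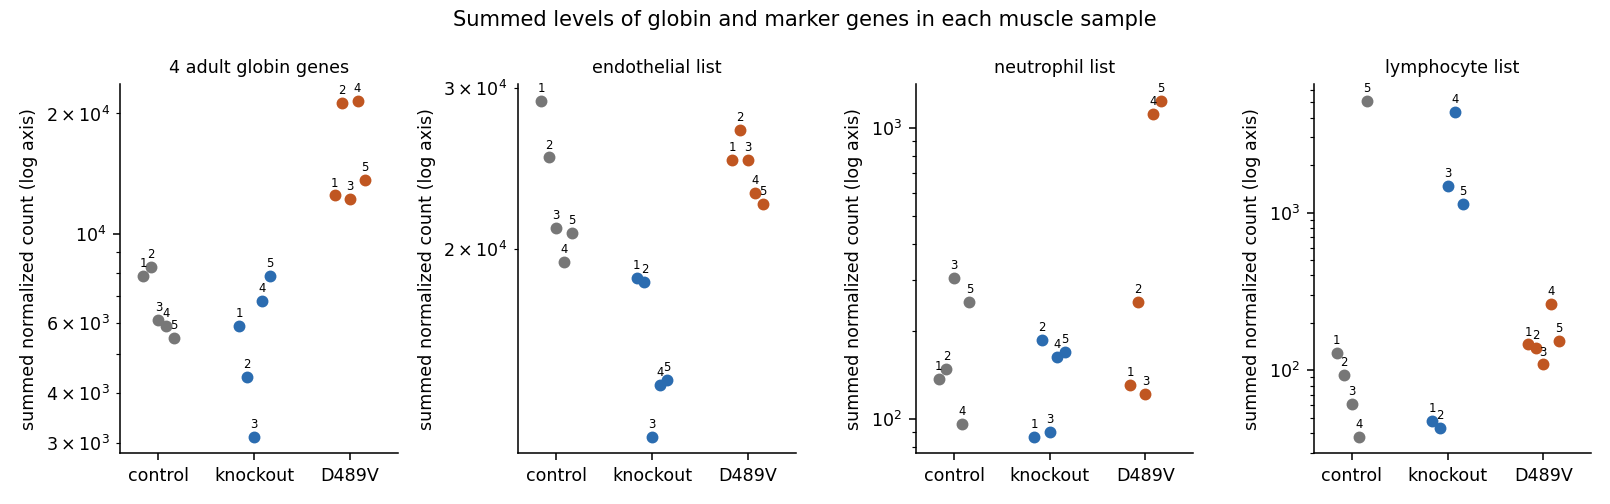
Summed normalized counts (log axes) of the 4 adult globin genes and of the endothelial, neutrophil and lymphocyte lists in each of the 15 samples, numbered by replicate. D489V samples are highest for globin, knockout samples are lowest for the endothelial list, D489V replicates 4 and 5 stand apart for neutrophil genes (1122 and 1237), and control 5 and knockout 3 to 5 for lymphocyte genes.

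To find genes with a like pattern, log2(value + 1) of each of 15807 genes was correlated over the 15 samples with the mean of the centred log2 values of the 4 globin genes. The samples share groups and scaling, so these correlations are descriptions. Alas2, which did not enter that mean, had r = 0.951 over all samples and 0.828 after centring within groups. Slc4a1 had r = 0.812 and 0.559, and stood at rank 65. Among the genes next in likeness were Socs3, Cpt1b, Adcy5, Tent5a, Adcy6, Gda, Id1 and Ech1, with r from 0.863 to 0.89. Limma called these 8 lower in knockout than in D489V, with an adjusted p from 0.00062 for Id1 to 0.0356 for Ech1, as were 10.3% of all genes tested. They were picked for likeness to a pattern that is high in D489V and low in knockout. These calls thus follow largely from the choice and are no separate result. Within groups, r was 0.131 for Cpt1b and 0.257 for Id1, against 0.792 for Socs3, so the first 2 followed the globin genes mainly between groups.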

How the data were processed

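RNA of 15 muscles was measured by sequencing. The values the authors deposited are treated as a score: whole numbers that the table names call normalized counts. How they were normalized is not given in the sources used here. Trim Galore 0.6.0, cutadapt, FastQC, STAR 2.7.0e, DESeq2 1.26.0 and GRCm38 are listed, without roles, per the submitters' processing notes. Each of the 2 tables holds the controls and 1 mutant group. The 5 control columns were identical in both, and median ratios to the geometric mean of all samples were 1.0069 to 1.0097, so knockout and D489V were compared directly. That 27 gene names differed between the tables was handled by joining on identifiers.

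Genes entered a fit where 5 or more of the 10 samples compared reached 10. The fits used limma 3.58.1 under R 4.3.3, with a mean-variance trend in eBayes and two-sided tests, on log2(value + 1), a scale that understates changes of low genes. P-values were adjusted by Benjamini-Hochberg over all genes tested and called under 0.05. Rounding hides the read counts, so depth is known only through the sums of normalized counts. No label says that the samples of a group came from separate mice, so p-values measure only the spread between these samples, which may be technical.

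Coordinates and exon lengths are from GENCODE M21 on GRCm38, and promoters from RefSeq. The text names the 6 genes, called genes of each list (at most the 5 with the greatest change, otherwise the 2 with the highest mean) and the 10 genes with the most similar pattern, except that some genes are not reported here. The members, lists and tests were chosen with earlier results of these data known. Alternatives changed the pseudocount (0.5 or 5), the requirement on low values (none, or a mean of 50), the scaling, the variance model, sample weights, the groups fitted, a replicate block and the samples. The scripts were tested on simulated data. Tables and plots were made in Python 3.11.15 with pandas 2.3.3, numpy 2.4.6 and matplotlib 3.10.9.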

Additional observations from a re-analysis of the deposited data

Results flagged for a closer look

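Within groups of 5 samples, 30 sets of values were screened for a sample far from the others, by the gap to its nearest neighbour as a share of the range (Dixon's critical value 0.71). Chance alone would mark about 1.5 of 30, and 2 were marked. For Slc4a1, knockout replicate 3 had a log2(value + 1) of 0.0, against 2.81 to 3.32 in the other knockout samples, with a gap of 0.845 of the range. For alpha globin as a percent of beta globin, control replicate 5 had 45.9%, against 66.8 to 70.3% in the other controls, with a gap of 0.854 of the range.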

How the results depend on the processing

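For the red cell genes, all 110 values in knockout against D489V stayed called, and all 105 in knockout against control stayed uncalled with the same sign. In D489V against control, 108 of 130 values stayed uncalled and 22 passed, under array weights, no requirement on low values, a pseudocount of 5, quantile normalization, robust eBayes, upper-quartile rescaling, without D489V replicate 3 and without control replicate 1. Without control replicate 1, Hba-a2 alone passed (limma adjusted p 0.0189). The number of genes called moved more. In D489V against control it was 9, and 86 with array weights, 29 with upper-quartile rescaling, 21 with robust eBayes, 19 with a pseudocount of 5, 16 with quantile normalization, 4 with a required mean of 50 and 1 with all 3 groups in one fit. It was 0 without D489V replicates 4 and 5, where limma gave 1892 genes an unadjusted p under 0.05, and 2 to 26 when each replicate was left out, with 26 without D489V replicate 3. In knockout against control it was 1, and 3 with quantile normalization, 16 with all 3 groups in one fit, 3 without knockout replicates 3 to 5 and control replicate 5, and 1 to 7 when each replicate was left out. In knockout against D489V it was 3181, and 586 without knockout replicates 3 to 5 and 1398 to 3686 when each replicate was left out, with 1398 without D489V replicate 1, 1526 without D489V replicate 2 and 1989 without D489V replicate 3. Upper-quartile rescaling moved the share of called genes that were higher from 44.4% to 75.9% in D489V against control and from 50.3% to 32.9% in knockout against D489V. The cause of these moves was not tested.

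Same-numbered samples did not consistently deviate together (correlations -0.4 to 0.386 over the 3 comparisons). In D489V against control the correlation was 0.386 for replicate 1 and 0.199 for replicate 2, but -0.4 for replicate 3. No label gives the numbers a shared litter or batch, so they were not taken as pairs. With the replicate block the count of called genes was 2208 in knockout against D489V, 7 in D489V against control and 1 in knockout against control. No call on the 6 genes changed under the block: the limma adjusted p was 0.00232 to 0.00786 in knockout against D489V and 0.0535 for Hba-a1 in D489V against control.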
